A study of Mus musculus with 6 samples.

Results

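Transcripts of 37 genes for the mitotic spindle, its kinesin motors and cytokinesis were followed in mouse uteri in which Indian hedgehog (Ihh) had been ablated. The genes were taken as every probe set whose platform annotation gives exactly 1 symbol out of a fixed list of 12 mitotic kinesins, 10 spindle assembly and microtubule binding proteins, 4 subunits of the chromosomal passenger complex, 5 mitotic kinases and 6 proteins of the midzone and cytokinesis. All 37 of 37 genes were on the array, out of 18193 genes with such a probe set, and 91 probe sets represented them. The Ihh-ablated samples were Ihhd/d uteri (PRcre/+ Ihhf/f, 3 samples), in which a Cre recombinase expressed from 1 progesterone receptor allele removes the floxed Ihh alleles wherever that receptor is expressed. The controls were Ihhf/f uteri (3 samples), which carry the same floxed alleles. The labels do not list the Cre for the controls, so the presence of the Cre and the loss of Ihh cannot be told apart. Both groups were collected on day -1 of an artificial decidual response. In that protocol, hormones and a stimulus make the endometrial stroma differentiate as it does in pregnancy. Whether the stimulus had been given by day -1 is not stated here, so the stroma may not yet have been differentiating. Total RNA of the uterus was hybridised to 1 Affymetrix array per sample. No age, strain or hormone dose was found in the labels. They also do not say whether different mice gave the RNA of different arrays, and a p-value here therefore reflects array-to-array spread that could be technical.

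The mitotic spindle is built from microtubules that kinesins slide, cross-link and shorten, while the passenger complex and the mitotic kinases control how chromosomes attach to it. After the chromosomes separate, the midzone between them directs a contractile ring that divides the cell. Most of these genes are transcribed mainly in cells that are close to division, so in a tissue their transcripts are widely used as a sign of how many cells are dividing. In the uterus, ovarian hormones set the division of epithelium and stroma in turn, and Ihh, made by the epithelium, signals to the stroma.

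The labelled groups and tissue were checked first. The 1 Ihh probe set read 121, 93.3 and 135 in Ihh-ablated uteri, against 164, 162 and 140.2 in control uteri, without overlap, but its difference did not pass the test (log2 -0.43, limma adjusted p = 0.164). It may lie outside the deleted part, which the labels do not give. Gli1, which Hedgehog signalling induces, averaged 72.0 ± 6.32 in Ihh-ablated uteri and 419 ± 84.7 in control uteri (SD, n = 3 each) and fell by 2.53 on the log2 scale (limma adjusted p = 0.000492). The uterine transcripts Pgr, Esr1, Hoxa10 and Hoxa11 all lay at or above the 96.5 percentile of probe sets. The source field of the labels names an activated Smoothened model in both groups, whereas the titles and genotypes give the Ihh genotypes used here. Array medians of intensity lay between 121.4 and 142.5.

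Most spindle, kinesin and cytokinesis genes were lower in Ihh-ablated uteri. Of the 37 genes, 35 had a probe set above the limit for dim signals (a mean intensity of 71.4 over 6 arrays), and each was represented by its brightest one. Of these 35, 26 fell, 0 rose and 9 did not pass at an adjusted p under 0.05 (limma, Benjamini-Hochberg over all 33777 probe sets tested), whereas 1.53% of all 15530 genes tested fell. At an unadjusted p under 0.05, 31 were lower and 0 higher, and 14.2% of all genes tested were lower by that rule. At an adjusted p under 0.01, 11 fell (0.502% of all genes tested). The median log2 difference of the 35 genes was -0.97, from -1.61 for Birc5 to 0.04 for Kif18b, against a median of -0.04 over all genes tested. For 32 of the 35, each Ihh-ablated array read below each control array, as it did for 19.0% of all genes tested. In bulk tissue, fewer dividing cells and less of each transcript per cell cannot be told apart.

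**Figure D1:**
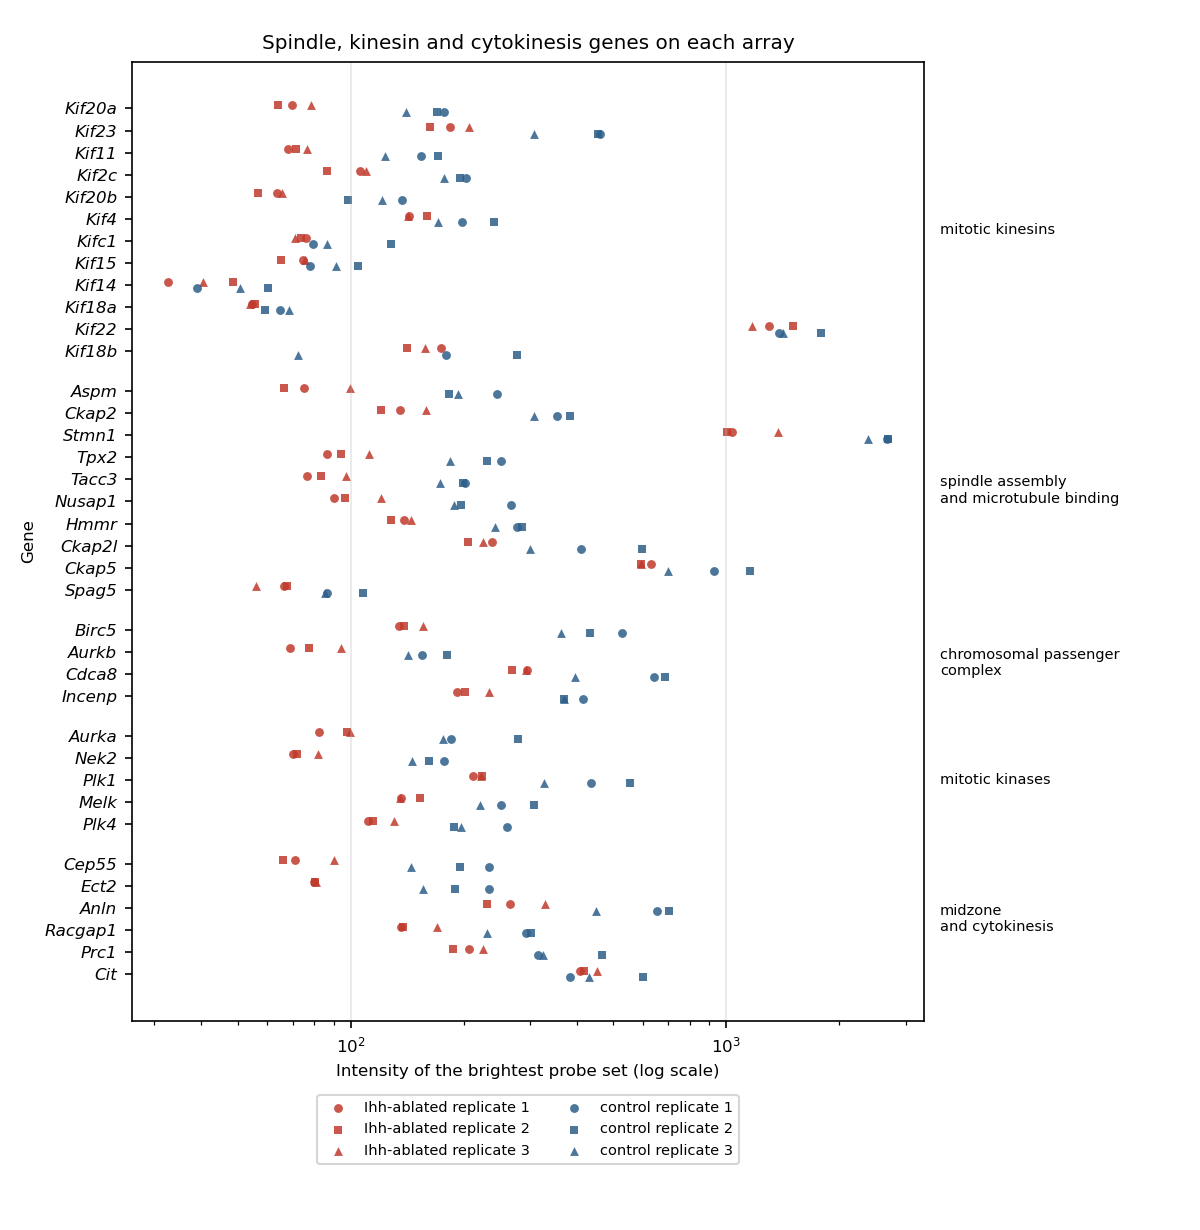
Intensity of the brightest probe set of each of the 37 genes on each array (log axis), grouped by role, with 3 Ihh-ablated arrays in red above 3 control arrays in blue. The red points lie left of the blue points without overlap for all tested genes except Kif22, Kif18b and Cit.

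The decline was shared by all arrays, with some spread inside each group. Relative to each gene's mean over the 6 arrays, the median of the 35 genes lay at -0.55, -0.57 and -0.38 log2 in the Ihh-ablated arrays and at 0.55, 0.64 and 0.29 log2 in the control arrays. Ihh-ablated replicate 3 was the highest of its group for 25 of the 35 genes, and control replicate 3 was the lowest of its group for 26. Control replicate 2, which also had the highest array median, was the highest of its group for 21. Left out in turn, the arrays changed both this count and the share of all genes that fell. Without Ihh-ablated replicate 1, 11 fell (0.515% of all genes tested), and without Ihh-ablated replicate 2, 17 fell (0.818%). Without control replicate 1, 10 fell (0.554%), and without control replicate 3, 30 fell (7.55%), while the median difference stayed between -1.16 and -0.92 whichever array was left out. Of the 26 genes, 10 kept the call on the brightest probe set without any 1 array: Kif20a, Stmn1, Ckap2, Tacc3, Hmmr, Aspm, Birc5, Incenp, Nek2 and Ect2. Other tested probe sets of Stmn1 (limma adjusted p = 0.0580), Aspm (0.138 and 0.297) and Nek2 (0.0614 and 0.537) were lower but did not pass. Those of Hmmr (0.0194, 0.0593 and 0.384) and Incenp (0.0215, 0.103 and 0.223) passed in part, and that of Tacc3 passed (0.0147).

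Transcripts of other tissues differed between the arrays at the same time. The summed intensity of 9 measured adipocyte markers out of 12 listed was 11234, 16803 and 26334 in Ihh-ablated uteri, against 3161, 8226 and 14364 in control uteri. Of the 9, 0 passed the limma test, while 6 had an unadjusted p under 0.05, all of them higher. The array with the most adipocyte signal in each group was thus replicate 3, which for most spindle genes read lowest among the controls and highest among the Ihh-ablated arrays. With the adipocyte mean as a covariate the median difference of the 35 genes was -0.91, but 2 of them fell, Birc5 and Stmn1 (0.155% of all genes tested fell). Pancreas markers, 11 of 13 listed, summed to 1387, 93704 and 1190.2 in Ihh-ablated uteri, against 3466, 1916 and 1396 in control uteri, so Ihh-ablated replicate 2 stood apart. Skeletal muscle markers, 11 of 12 listed, summed to 2175, 2080.1 and 2565 in Ihh-ablated uteri, against 5276, 4828 and 17235 in control uteri, so control replicate 3 stood apart, and 1 of the 11 fell. Without both of those arrays 28 of the 35 spindle genes fell (4.22% of all genes tested), with a median of -1.10. Control replicate 3 was the lowest control for 26 of the 35, so leaving it out widens their difference by construction. The arrays kept in that setting still differed in adipocyte signal, which summed to 11234 and 26334 in Ihh-ablated uteri, against 3161 and 8226 in control uteri. Epithelial markers, 13 of 14 listed, summed to 18503, 18337 and 20117 in Ihh-ablated uteri, against 12972, 15234 and 19072 in control uteri. Their median log2 difference was 0.35. Of the 13, 0 passed the limma test and 7 had an unadjusted p under 0.05, all of them higher. Of all 15530 genes tested, 1551 were higher by that unadjusted rule and 2211 lower. Of 14 stromal markers 2 fell and 1 rose, with 3 lower and 4 higher at an unadjusted p under 0.05. Of 10 smooth muscle markers 1 fell (2 lower and 1 higher unadjusted), and of 10 endothelial markers 1 fell (1 lower and 1 higher unadjusted). Of 7 leukocyte markers 0 passed the limma test (2 higher at an unadjusted p under 0.05). No measured marker was at 0, and the part of each tissue in the result was not tested beyond these fits.

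**Figure D2:**
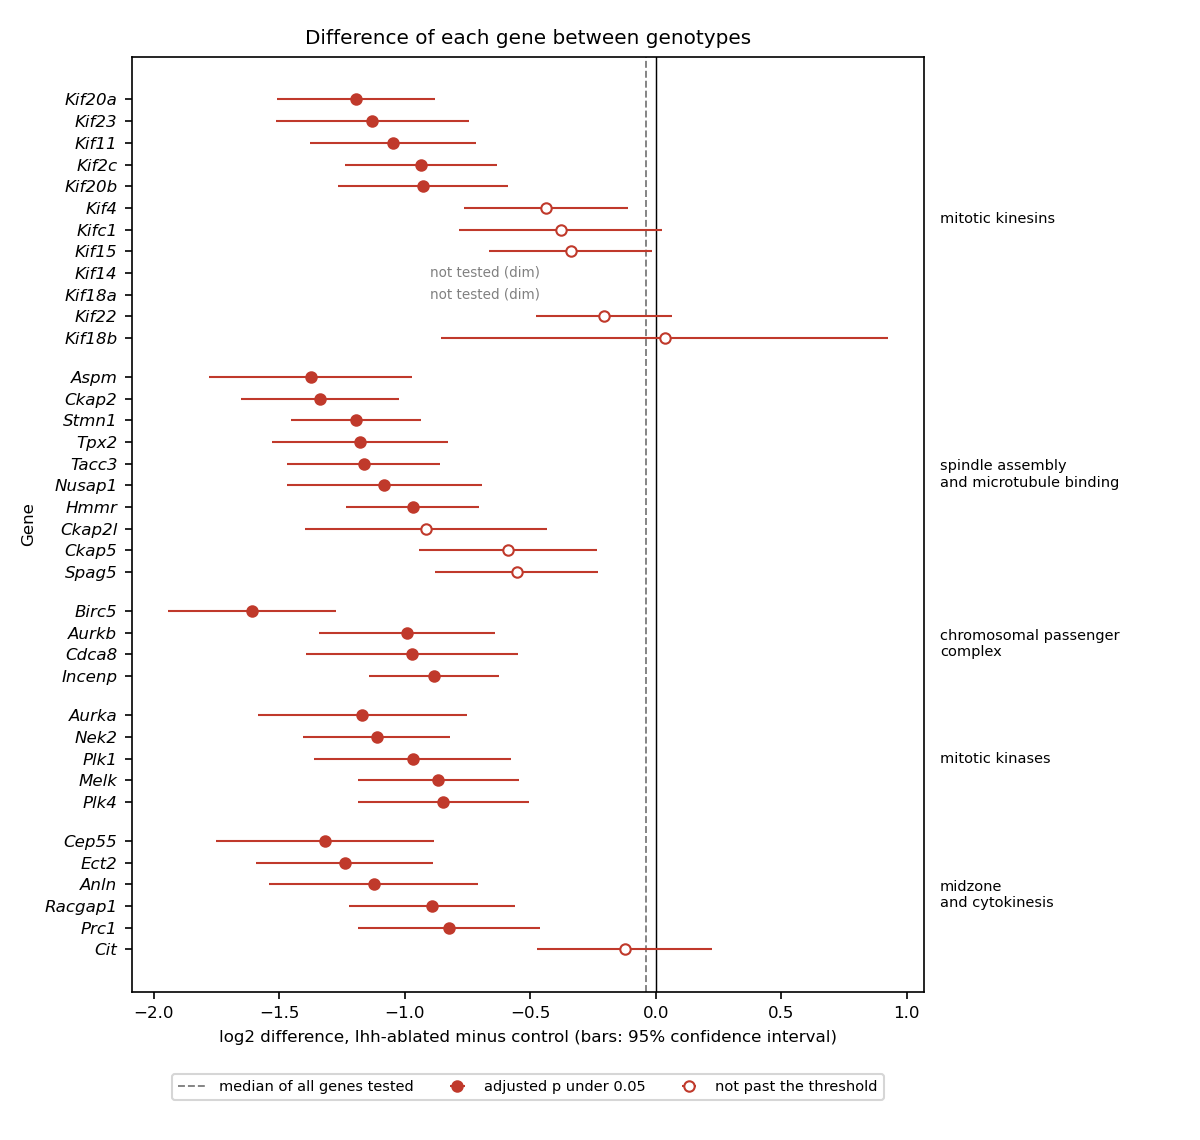
The log2 difference of each gene, Ihh-ablated minus control, with its 95% confidence interval from limma, grouped by role, with genes past the threshold as filled points. Filled points run from Birc5 at -1.61 to Prc1 at -0.82, while the dashed line gives the median of all genes at -0.04.

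The mitotic kinesins were the most mixed group. The median log2 difference of the 10 tested was -0.68. Of them 5 fell and 5 did not pass, and 7 had an unadjusted p under 0.05, all of them lower. Kif20a, which carries the passenger complex to the midzone, read 69.7, 64.2 and 78.2 in Ihh-ablated uteri, against 177, 169 and 140.4 in control uteri (2.29-fold lower, log2 -1.19, SE 0.14, limma adjusted p = 0.00454). The groups were well separated, and the Ihh-ablated level lay near the limit for dim signals, so the size of the fold is uncertain. Kif11, the motor that pushes the spindle poles apart, read 67.9, 71.3 and 76.3 in Ihh-ablated uteri, against 154, 171 and 123 in control uteri (log2 -1.04, SE 0.15, limma adjusted p = 0.0106). Kif2c, which shortens microtubules at centromeres, read 106, 86.5 and 109 in Ihh-ablated uteri, against 203, 196 and 177 in control uteri (log2 -0.93, SE 0.13, limma adjusted p = 0.0117). In both genes the Ihh-ablated arrays all lay below the control arrays, and both lost the call without Ihh-ablated replicate 1 or without control replicate 1 (highest limma adjusted p 0.0613 for Kif11 and 0.0634 for Kif2c). Kif23, the motor of the centralspindlin complex, fell by 1.13 on the log2 scale, and Kif20b, a kinesin needed to complete cytokinesis, by 0.93. Kif23 lost the call without Ihh-ablated replicate 1, control replicate 1 or control replicate 2 (highest limma adjusted p 0.0767). Kif20b lost it without any 1 of the Ihh-ablated arrays or control replicate 1 (highest 0.0806), with quantile normalization (0.0563) and with median-centred arrays (0.0502).

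The kinesins that did not pass differed in how they missed the threshold. Kif4, a chromosome-bound motor that also limits midzone length, read 143, 159.5 and 142 in Ihh-ablated uteri, against 197, 240.3 and 170.2 in control uteri (log2 -0.44, limma adjusted p = 0.137). Its adjusted p in limma was 0.0402 without control replicate 3, the lowest control array, a setting in which 7.55% of all genes tested fell, and 0.206 to 0.386 without any other 1 array. Kif15, which can stand in for Kif11, read 74.7, 65.1 and 75.4 in Ihh-ablated uteri, against 77.8, 104 and 91.4 in control uteri (log2 -0.34, limma adjusted p = 0.204). Kifc1, a motor that walks to microtubule minus ends and focuses spindle poles, read 76.0, 73.5 and 71.1 in Ihh-ablated uteri, against 79.2, 128 and 86.4 in control uteri (log2 -0.38, limma adjusted p = 0.240). In these 3 genes the groups did not overlap, but the gap was small beside the spread of the controls. Kif18b, which acts on astral microtubule ends, read 173, 142 and 158 in Ihh-ablated uteri, against 179, 277 and 72.2 in control uteri (log2 0.04, 95% confidence interval -0.85 to 0.93). Its controls spanned the whole range of the other group, and without control replicate 3 its difference was -0.51 (limma adjusted p = 0.123). Kif14 and Kif18a were too dim to be tested. Kif14, a midbody motor, read 32.6, 48.6 and 40.4 in Ihh-ablated uteri, against 38.9, 60.2 and 50.8 in control uteri, with overlap. Kif18a, which damps chromosome movements, read 54.5, 55.7 and 53.8 in Ihh-ablated uteri, against 64.7, 59.0 and 68.4 in control uteri, without overlap.

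Kif22, a chromosome-bound motor, depended on the probe set. Its brightest one read 1297, 1506 and 1170.1 in Ihh-ablated uteri, against 1384, 1789 and 1418 in control uteri, with overlap (log2 -0.21, limma adjusted p = 0.323). Its other probe sets averaged 80.5 ± 6.41 in Ihh-ablated uteri and 144 ± 16.4 in control uteri (SD, n = 3 each), and 65.4 ± 10.3 in Ihh-ablated uteri and 145 ± 15.9 in control uteri, and both fell (log2 -0.84 and -1.15, limma adjusted p = 0.0172 and 0.00823). The bright probe set has the suffix _x_at, by which the manufacturer marks probes that can also match other transcripts. The probe set at -1.15 has another suffix, _s_at. Which of these signals is that of Kif22 was not tested.

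Among spindle assembly and microtubule binding proteins, 7 of 10 fell and 3 missed the threshold. Their median log2 difference was -1.12, and all 10 had an unadjusted p under 0.05 and groups that did not overlap. Stmn1 (stathmin), which binds free tubulin and destabilises microtubules, was the brightest member at 1036, 1006 and 1368 in Ihh-ablated uteri, against 2669, 2693 and 2380.5 in control uteri (2.29-fold lower, log2 -1.19, SE 0.12, limma adjusted p = 0.00238). Ckap2, a microtubule-associated protein of the spindle, read 136, 120.3 and 158 in Ihh-ablated uteri, against 355, 383 and 307 in control uteri (2.53-fold lower, log2 -1.34, SE 0.14, limma adjusted p = 0.00285). Tacc3, which cross-links the microtubules of kinetochore fibres, read 76.7, 83.1 and 97.2 in Ihh-ablated uteri, against 202, 199 and 173 in control uteri (2.24-fold lower, log2 -1.16, SE 0.14, limma adjusted p = 0.00449). The 3 genes share a tight control group and no overlap. The others that fell were Aspm, which binds microtubule minus ends at the poles (log2 -1.37), Tpx2, the activator of Aurora A (-1.18), Nusap1, which bundles spindle microtubules (-1.08), and Hmmr, a hyaluronan receptor that also binds the spindle (-0.97). Nusap1 lost the call without Ihh-ablated replicate 1, Ihh-ablated replicate 2 or control replicate 1 (highest limma adjusted p 0.0829), and Tpx2 without control replicate 1 (0.0512).

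Ckap2l, Ckap5 and Spag5 did not pass. Ckap2l, a paralogue of Ckap2, read 238, 206 and 224 in Ihh-ablated uteri, against 411, 598 and 299.97 in control uteri (log2 -0.92, limma adjusted p = 0.0646), while its other probe set fell (log2 -0.90, limma adjusted p = 0.0283). Ckap5, a microtubule polymerase and partner of Tacc3, read 629, 593 and 594 in Ihh-ablated uteri, against 927, 1158 and 701 in control uteri (log2 -0.59, limma adjusted p = 0.0913). Spag5 (astrin), which steadies kinetochore attachments, read 66.4, 67.5 and 55.9 in Ihh-ablated uteri, against 86.2, 108 and 85.4 in control uteri (log2 -0.55, limma adjusted p = 0.0851). In all 3 the lowest control array was replicate 3. Without it each was past the threshold (limma adjusted p = 0.00566, 0.00590 and 0.0465), but leaving out the control nearest to the Ihh-ablated arrays widens the difference by construction, and 7.55% of all genes tested fell in that setting. Without any other 1 array none of the 3 passed (limma adjusted p 0.0904 to 0.304).

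All 4 subunits of the chromosomal passenger complex fell, with a median log2 difference of -0.98. Birc5 (survivin), which brings the complex to centromeres and also blocks apoptosis, read 135, 139 and 156 in Ihh-ablated uteri, against 528, 434 and 362 in control uteri (3.05-fold lower, log2 -1.61, SE 0.15, limma adjusted p = 0.00194). It had the lowest p and the largest difference of the 35 genes. Incenp, the scaffold that activates Aurora B, read 192, 202 and 233 in Ihh-ablated uteri, against 414, 369 and 370.2 in control uteri (log2 -0.88, SE 0.11, limma adjusted p = 0.00751). Aurkb, the kinase of the complex, read 68.7, 77.3 and 94.4 in Ihh-ablated uteri, against 154, 180.0 and 142 in control uteri (log2 -0.99, SE 0.16, limma adjusted p = 0.0155). Cdca8 (borealin) read 295, 269 and 293 in Ihh-ablated uteri, against 639.8, 688 and 396 in control uteri (log2 -0.97, limma adjusted p = 0.0348). No array of these genes crossed into the other group. Cdca8 lost the call without each array but control replicate 3 (highest limma adjusted p 0.141), with median-centred arrays (0.05004), with no filter (0.0590) and with no intensity trend (0.0715), although its 2 dimmer probe sets fell by more (log2 -1.35 and -1.14). Aurkb lost it without Ihh-ablated replicate 1, Ihh-ablated replicate 2 or control replicate 1 (highest 0.0827).

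All 5 mitotic kinases fell, with a median log2 difference of -0.97. Nek2, which separates the centrosomes, read 70.3, 71.9 and 81.6 in Ihh-ablated uteri, against 177, 162 and 145 in control uteri (2.16-fold lower, log2 -1.11, SE 0.13, limma adjusted p = 0.00454). Aurka, the kinase of the spindle poles, read 82.0, 97.7 and 99.7 in Ihh-ablated uteri, against 185, 279 and 176 in control uteri (2.25-fold lower, log2 -1.17, SE 0.19, limma adjusted p = 0.0162). Melk, a kinase of dividing and progenitor cells, read 136, 153 and 135 in Ihh-ablated uteri, against 251, 308 and 221 in control uteri (1.82-fold lower, log2 -0.87, SE 0.14, limma adjusted p = 0.0185). Plk1, which acts from mitotic entry to cytokinesis, differed by -0.97 (limma adjusted p = 0.0266), and Plk4, which starts centriole duplication, by -0.85 (limma adjusted p = 0.0260). Nek2 was the only kinase of the 5 to keep the call without any 1 array: the others lost it without Ihh-ablated replicate 1 or control replicate 1 among others, with highest limma adjusted p values of 0.0806 for Aurka, 0.0937 for Melk, 0.112 for Plk1 and 0.118 for Plk4. Plk4 also lost it with quantile normalization (limma adjusted p = 0.0609) and with median-centred arrays (0.0669), and Plk1 with no intensity trend (0.0542).

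Of the 6 midzone and cytokinesis genes, 5 fell and Cit missed the threshold. The median log2 difference was -1.01, with 5 at an unadjusted p under 0.05, all of them lower. Ect2, the exchange factor that activates RhoA at the cell equator, read 79.96, 80.4 and 81.0 in Ihh-ablated uteri, against 234, 189 and 155 in control uteri (2.36-fold lower, log2 -1.24, SE 0.16, limma adjusted p = 0.00661). Cep55, the scaffold of the abscission machinery, read 71.1, 66.1 and 90.3 in Ihh-ablated uteri, against 233, 195 and 145 in control uteri (2.49-fold lower, log2 -1.32, SE 0.19, limma adjusted p = 0.0123). Anln (anillin), which ties the contractile ring to the membrane, read 265, 231 and 329 in Ihh-ablated uteri, against 655, 704 and 451 in control uteri (2.18-fold lower, log2 -1.12, SE 0.19, limma adjusted p = 0.0187). In all 3 genes control replicate 3 was the control closest to the Ihh-ablated arrays. Racgap1, the partner of Kif23 in centralspindlin, fell by 0.89 on the log2 scale, and Prc1, which bundles the midzone microtubules, by 0.82, with a second Prc1 probe set at -1.52 (limma adjusted p = 0.00354). Without Ihh-ablated replicate 1 or without control replicate 1, Cep55, Anln, Racgap1 and Prc1 lost the call (highest limma adjusted p 0.123, for Prc1). Anln and Racgap1 also lost it without Ihh-ablated replicate 2 or control replicate 2, and Prc1 without Ihh-ablated replicate 2 or 3. Prc1 also lost it with no filter (0.0576) and with no intensity trend (0.0663).

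Cit, the citron kinase of the midbody, read 407, 417 and 452 in Ihh-ablated uteri, against 384, 599 and 431 in control uteri on its brightest probe set, with overlap (log2 -0.12, limma adjusted p = 0.637). Its 2 dimmer probe sets tested stood at -0.66 (limma adjusted p = 0.114) and -0.76 (0.0147), the last of which fell without overlap between groups. As for Kif22, the bright probe set carries the suffix for probes that can match other transcripts. The brightest probe sets of Kif2c, Tacc3 and Incenp, which fell, carry it too. The next brightest probe set of each, without the suffix, also fell (log2 -0.91, -0.88 and -0.79, limma adjusted p = 0.0178, 0.0147 and 0.0215). When probe sets ending in _x_at were set aside, an alternative chosen after seeing the data, 27 of 35 genes fell (1.51% of all genes tested). Kif22 was among them, and Cit was then at -0.66. Probe sets ending in _s_at, the brightest of Kifc1, Stmn1, Aurkb, Cdca8, Plk4 and Nek2, were kept. Whether those match other transcripts was not tested.

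**Figure D3:**
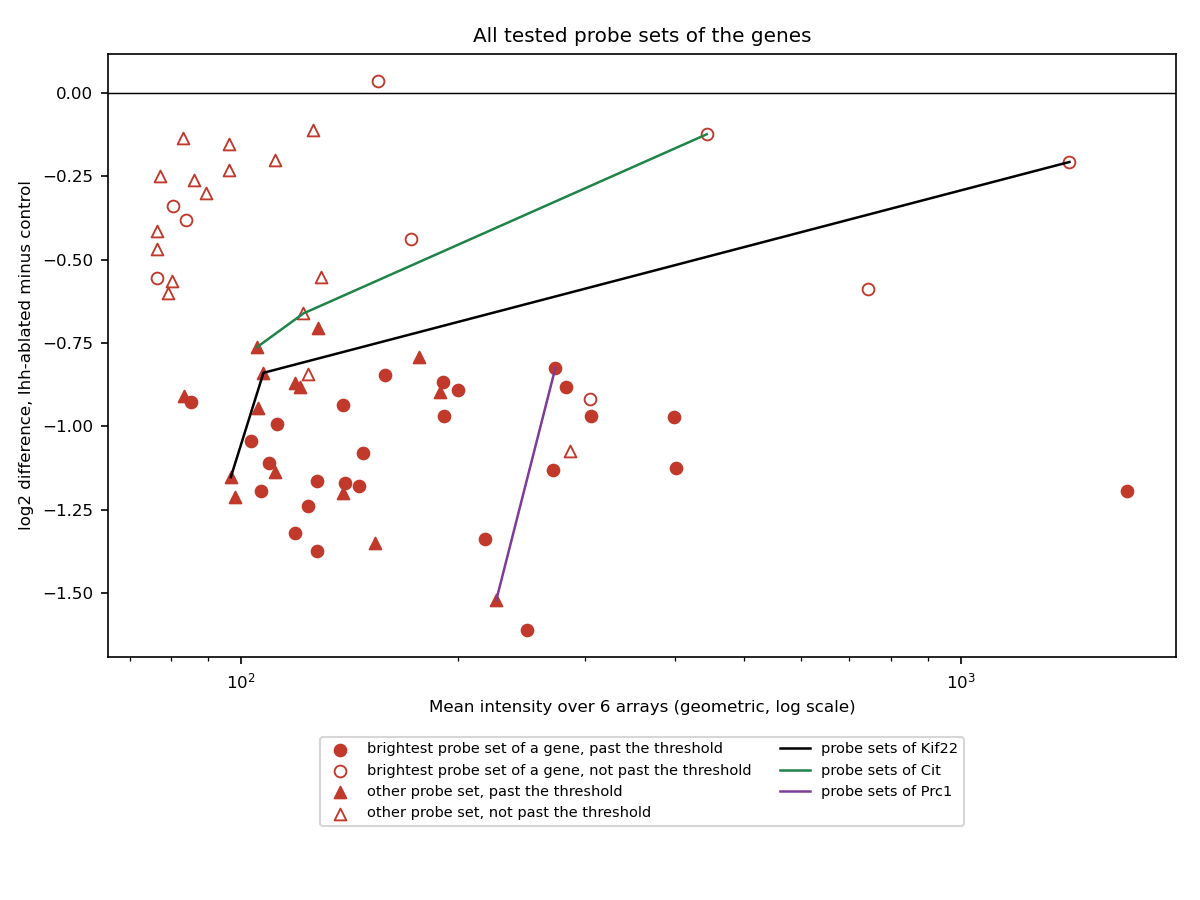
Log2 difference (Ihh-ablated minus control) of all 66 tested probe sets of the genes against their mean intensity (log axis), with lines joining the probe sets of Kif22, Cit and Prc1. Of the 66, 41 fell and 0 rose, and the brightest probe sets of Kif22 and Cit lie near 0 above the dimmer ones of the same gene.

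Across all probe sets, 41 of 66 fell and 0 rose, whereas 1.11% of the 33777 probe sets tested fell. All 31 tested probe sets that were not the brightest of their gene had a negative difference, and 15 of them fell. They belong to 19 genes read on the same 6 arrays. Of all 15530 genes tested, 8810 had a negative difference. Probe sets of 1 gene differed in size: Tpx2, for example, stood at -1.18 and -0.70 on its brighter probe sets (limma adjusted p = 0.00832 and 0.0206) and at -0.30 and -0.15 on its dimmer ones (0.221 and 0.602). Aurka stood at -1.17 on its brighter probe set (limma adjusted p = 0.0162) and at -0.20 on its dimmer one (0.366). Over the 35 genes, the log2 difference did not follow the control level (Pearson r = -0.06, Spearman rho = -0.07, across genes that share the same 6 arrays, given as a description).

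Promoter sequences were read for features the genes have in common. Genes of late cell cycle stages often carry the cell cycle genes homology region (CHR), a hexamer near the transcription start that the MuvB complexes bind, with upstream CCAAT boxes that bind NF-Y. RefSeq windows (GRCm38.p6) from 250 bases before to 50 bases after the start were found for 32 of 37 genes, 35 windows in all, with none for Kif20a, Tpx2, Stmn1, Aurkb and Incenp. The letters TTTGAA, or the second form of the hexamer, TTCGAA, on either strand, lay within 50 bases of the start in 24 of 35 windows (68.6%), against 5.31% of all 32851 promoter windows. The second form was in 0 of the 35 windows, against 1.56% of all windows. A CCAAT box, on either strand, lay in 22 of 35 windows (62.9%), against 37.4% of all windows, and 14 windows (40.0%) held several, against 11.7%. Both features together were found in 19 of 35 windows (54.3%), against 2.24% of all windows. In 1 gene the hexamer and a CCAAT box share 1 base, the only such overlap among the windows. A match is only a match of letters.

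Stretches of 26 bases around the hexamer are given for the 2 fallen genes of lowest p that have one within 50 bases of the start among the kinesins, the spindle assembly proteins, the kinases and the cytokinesis proteins, read in the direction in which the hexamer runs TTTGAA, with the hexamer in capitals.
Kif11 (chr19:37376353-37376378, minus strand): gcgcctcaatTTTGAAaaatggagac
Kif23 (chr9:61946782-61946807, minus strand): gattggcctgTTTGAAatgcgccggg
Hmmr (chr11:40733414-40733439, minus strand): ttgaggtaaaTTTGAAttcaggcgag
Aspm (chr1:139454769-139454794, plus strand): aggcgcgataTTTGAAccgagcaaaa
Aurka (chr2:172370523-172370548, minus strand): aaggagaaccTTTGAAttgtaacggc
Plk1 (chr7:122159455-122159480, plus strand): cagcgccgcgTTTGAAttcggggagg
Ect2 (chr3:27153824-27153849, minus strand): actggattttTTTGAAtcggaggcgg
Cep55 (chr19:38054998-38055023, minus strand): cttccgggagTTTGAAtcccgcggct

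These genes were chosen for a hexamer within 50 bases of the start, which fixes its rough position; Ckap2 and Kif2c, which also fell, have it farther away, at -101 and -103. In the genes shown its first base lay at 3 bases after the start in Kif23, 7 in Aspm, 9 in Hmmr, 16 in Ect2, 25 in Cep55, 31 in Plk1 and 33 in Aurka, and 19 bases before the start in Kif11 (position -19). In Kif11 and Cep55 it runs against the gene, in the other 6 with it. Where a gene has several windows, as Ect2 does, the position is from the start nearest the match.

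Having the hexamer near the start did not go with a larger fall. It was found in 13 of 21 fallen genes with a window and in 8 of 9 tested genes that did not pass. The median log2 difference was -0.93 in the 21 tested genes with it and -1.08 in the 9 without it. Whole windows are given for the gene of lowest p with a window in each role group, 5′ to 3′ along the gene, with matches to the hexamer and to CCAAT, on either strand, in capitals.
Kif11 (chr19:37376132-37376431, plus strand): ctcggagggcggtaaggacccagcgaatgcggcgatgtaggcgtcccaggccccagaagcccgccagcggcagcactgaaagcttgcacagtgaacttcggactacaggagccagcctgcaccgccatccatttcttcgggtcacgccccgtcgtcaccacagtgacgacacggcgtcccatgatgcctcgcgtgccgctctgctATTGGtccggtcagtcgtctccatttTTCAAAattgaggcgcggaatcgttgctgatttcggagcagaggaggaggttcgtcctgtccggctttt
Ckap2 (chr8:22185770-22186069, minus strand): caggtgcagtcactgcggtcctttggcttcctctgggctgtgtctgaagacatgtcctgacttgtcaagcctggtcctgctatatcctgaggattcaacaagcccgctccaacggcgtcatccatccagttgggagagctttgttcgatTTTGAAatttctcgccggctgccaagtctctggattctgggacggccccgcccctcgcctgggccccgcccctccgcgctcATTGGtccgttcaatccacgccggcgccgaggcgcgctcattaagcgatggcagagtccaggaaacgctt
Birc5 (chr11:117848987-117849286, plus strand): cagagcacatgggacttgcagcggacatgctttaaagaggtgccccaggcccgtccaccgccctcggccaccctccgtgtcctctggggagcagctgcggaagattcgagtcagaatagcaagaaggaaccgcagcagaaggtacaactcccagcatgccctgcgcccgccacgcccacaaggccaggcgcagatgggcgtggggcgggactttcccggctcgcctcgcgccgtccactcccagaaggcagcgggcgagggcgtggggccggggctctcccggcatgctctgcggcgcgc
Nek2 (chr1:191821223-191821522, plus strand): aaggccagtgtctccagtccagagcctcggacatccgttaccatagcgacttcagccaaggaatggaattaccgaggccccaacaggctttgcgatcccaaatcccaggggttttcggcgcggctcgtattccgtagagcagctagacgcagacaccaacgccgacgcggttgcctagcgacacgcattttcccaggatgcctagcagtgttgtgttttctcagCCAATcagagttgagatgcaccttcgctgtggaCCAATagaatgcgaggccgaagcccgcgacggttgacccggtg
Ect2 (chr3:27153805-27154104, minus strand): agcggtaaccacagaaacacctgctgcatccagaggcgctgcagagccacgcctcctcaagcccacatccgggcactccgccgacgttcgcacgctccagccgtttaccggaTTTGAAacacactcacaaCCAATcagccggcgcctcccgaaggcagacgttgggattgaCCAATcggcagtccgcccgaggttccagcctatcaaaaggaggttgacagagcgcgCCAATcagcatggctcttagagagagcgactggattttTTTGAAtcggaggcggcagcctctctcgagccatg

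Among these 5, Kif11 and Ect2 hold both features near the start, and Ckap2 holds a CCAAT box near the start and its hexamer at position -101. Nek2 holds a pair of CCAAT boxes and no hexamer, and Birc5 neither, although Birc5 had the largest difference of the 35 genes.

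**Figure D4:**
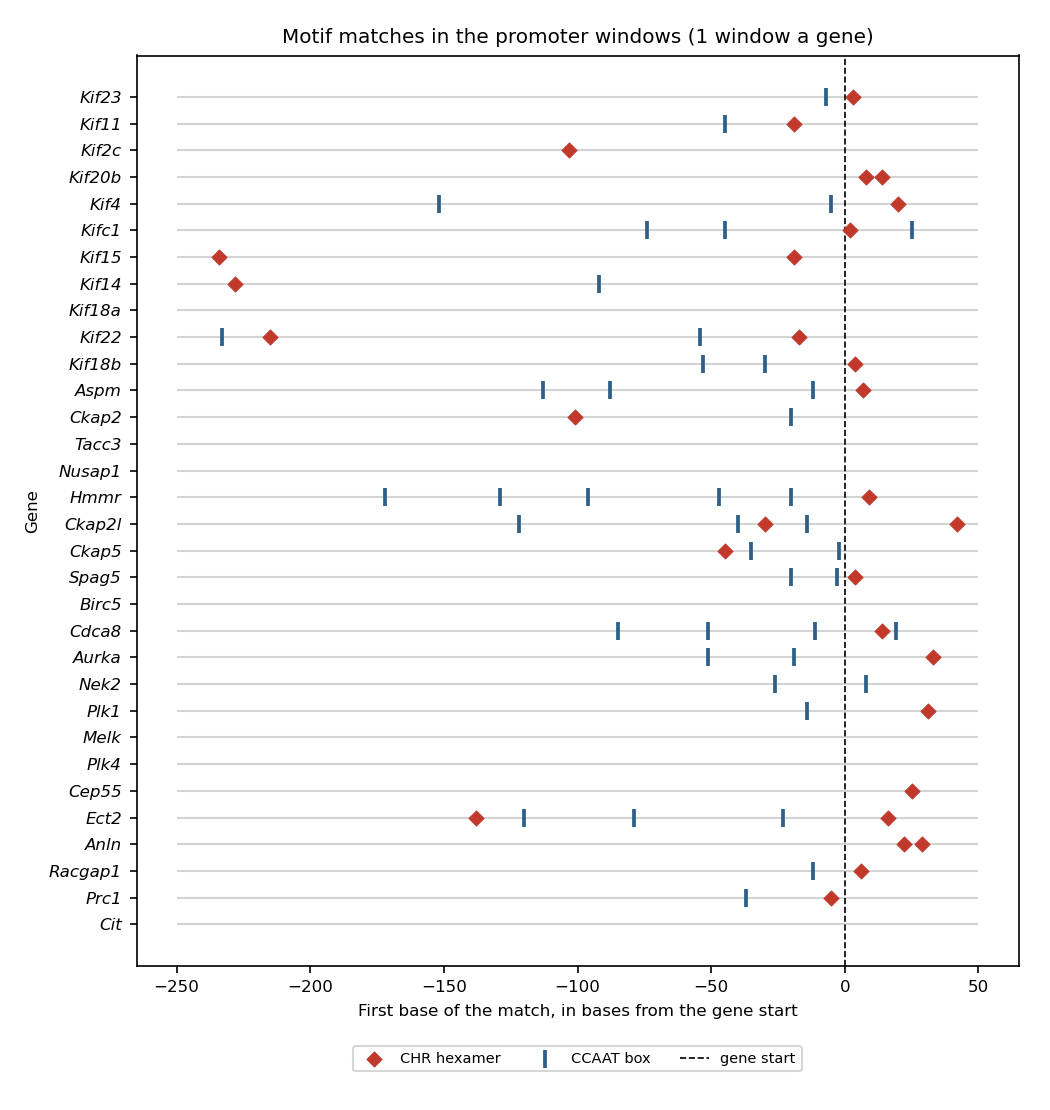
Positions of the CHR hexamer (diamonds) and of CCAAT boxes (bars), on either strand, in bases from the gene start, in 1 promoter window (that of lowest coordinate) for each of 32 genes. Most diamonds cluster within 50 bases of the start, with CCAAT boxes mostly before them.

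The other genes of the same machinery were counted in the same fit. Of 132 tested genes in 6 lists of spindle, centrosome and cytokinesis genes outside the 37, 9 fell and 123 missed the threshold (limma). The share that fell was 6.82%, against 1.53% of all genes tested. Their median log2 difference was -0.09, and 40 were lower and 7 higher at an unadjusted p under 0.05. Of all 15530 genes tested, 2211 (14.2%) were lower and 1551 higher by that rule. Among 30 transport and other kinesins and kinesin light chains, 4 were lower and 3 higher at an unadjusted p under 0.05. Of these 30, 0 passed the limma test, with a median of -0.03. The closest was Kif26b at 0.59 (limma adjusted p = 0.0730), higher in Ihh-ablated uteri. Of 17 subunits of the gamma-tubulin ring and augmin, which nucleate spindle microtubules, 0 passed (4 unadjusted, all lower, limma), with a median of -0.09. Of 21 centrosome and centriole genes, 0 passed (9 unadjusted, all lower, limma), with a median of -0.20. Of 10 tubulins 2 fell, Tubb6 (log2 -0.45) and Tubb5 (-0.23), with a median of -0.27. By the unadjusted rule 7 tubulins were lower and 0 higher. Of 29 contractile ring and abscission genes 2 fell, the formin Diaph3 (-1.03) and the actin-severing protein Cfl1 (-0.22), with a median of -0.02. By the unadjusted rule 5 of the 29 were lower and 3 higher. By the unadjusted rule 11 of 25 other spindle proteins were lower and 1 higher. Of these 25, 5 fell, with a median of -0.27: the kinetochore motor Cenpe (-1.21), Arhgap11a, a regulator of RhoA (-0.90), Dlgap5, a spindle protein (-0.69), Ckap4 (-0.59), which is known mainly as a membrane protein of the endoplasmic reticulum, and Pimreg (-0.88), which was named after its value was seen. The count of 9 moved with every array: it was 1, 3 and 4 without Ihh-ablated replicates 1, 2 and 3, and 2, 5 and 28 (4 of them rises) without control replicates 1, 2 and 3. The share of all genes tested that passed in either direction moved as well, from 2.81% with all arrays. It was 0.715%, 1.47% and 1.12% without the Ihh-ablated replicates in turn, and 0.766%, 1.35% and 12.2% without the control replicates in turn.

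Kinetochore and spindle checkpoint genes, the list closest in function, had 7 falls and 0 rises among 26 tested (limma), with 20 lower and 0 higher at an unadjusted p under 0.05 and a median of -0.53. The share that fell was 26.9%, against 1.53% of all genes tested, and 14.2% of all genes tested were lower at an unadjusted p under 0.05. Bub1, a checkpoint kinase, fell by 1.46 on the log2 scale, Cenpa, the centromeric histone, by 1.41, Spc25, a subunit of the Ndc80 complex, by 1.31 and Cdc20, the activator of anaphase, by 1.07. Whether these lists differ from the 37 genes was not tested.

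**Figure D5:**
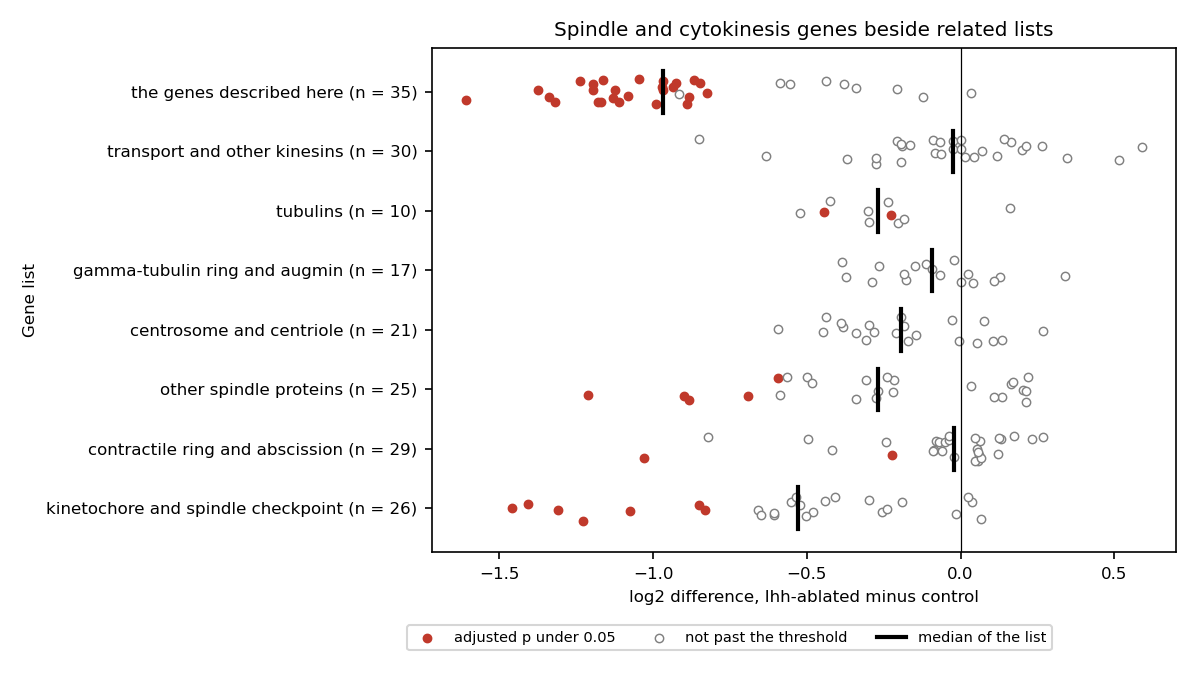
Log2 difference (Ihh-ablated minus control) of each tested gene in the 35 genes described here and in 7 related lists, with genes past the threshold filled and the median of each list as a black bar. The median is -0.97 in the genes described here, -0.53 in kinetochore and checkpoint genes, and between -0.27 and -0.02 in the other lists.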

How the data were processed

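The deposited file holds the authors' processed intensity of 45101 probe sets on a linear scale for each of 6 arrays. How the probes were summarised, background-corrected and normalised is not given in the sources used here, so their effect on the values is not known. Of these, 64 control probe sets were left out. The platform annotation gave 1 symbol for 34945 probe sets, several for 932 and none for 9160, and genes were named only from the first kind. A floor of 16 was applied to 1821 values, log2 was taken, and the lowest 25% of probe sets by mean log2 were left out, which left 33777 probe sets and 15530 genes. Array medians differed by at most 0.23 log2, so the authors' scale was kept. The highest median was that of control replicate 2 (142.5, against 121.4 to 125.8 on the other arrays). With median-centred arrays 129 of all genes tested fell, against 238 in the main fit.

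The tests used limma 3.58.1 under R 4.3.3, with lmFit and a moderated variance that follows intensity (residual degrees of freedom 4, prior 5.25), and Benjamini-Hochberg adjustment over all probe sets tested. Differences are Ihh-ablated minus control, and a gene stands for its brightest probe set. The number of arrays, 3 a group, limits the precision. The fit was first tested on simulated data. The members, lists, tests and alternatives were chosen with earlier results of these data known. The 3 members of lowest p per role group and all that were not called are given per array, and up to 4 called genes of lowest p are named per list. The skeletal muscle list and the setting aside of probe sets ending in _x_at were added later. Alternatives changed the normalization, floor, filter, variance model, array weights, replicate block, probe set, threshold, covariate and arrays. The hexamer stretch of 1 further gene is not reported here. Plots come from matplotlib 3.10.9 (Python 3.11.15).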

Additional observations from a re-analysis of the deposited data

How the results depend on the processing

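Of 35 tested spindle, kinesin and cytokinesis genes, 26 fell, and between 19 and 28 did under 13 of 15 alternatives that kept all arrays or left out both arrays with other-tissue transcripts, where 0.831% to 4.22% of all genes tested fell (37 genes were tested with no filter and 25 with the lowest 50% left out). The exceptions were a threshold of 0.01 (11 genes) and the adipocyte mean as a covariate (2 genes, 29 at an unadjusted p under 0.05). The covariate takes 1 of 4 residual degrees of freedom. It was 9.19, 9.76 and 10.29 log2 in Ihh-ablated uteri, against 7.82, 8.92 and 9.55 in control uteri. It thus partly follows the genotype, and why fewer genes passed in that fit was not tested. The setting without both arrays with other-tissue transcripts leaves out control replicate 3, the lowest control for most of these genes, which by itself widens their difference. The arrays it keeps still differ in adipocyte signal, which summed to 11234 and 26334 in Ihh-ablated uteri, against 3161 and 8226 in control uteri. Leaving out 1 array gave 10 to 30 genes and a median difference of -1.16 to -0.92, the lowest without control replicate 3. The count of 9 other spindle and cytokinesis genes called in limma became 17 with array weights, 14 with the replicate block, 2 at a threshold of 0.01, 0 with the adipocyte covariate (25 at an unadjusted p under 0.05) and 1 to 28 without 1 array. Of all genes tested, 5.04% passed in either direction with array weights, 5.94% with the replicate block and 0.637% at a threshold of 0.01. With the adipocyte covariate 0.180% did, and without 1 array 0.715% to 12.2%, against 2.81% in the main fit. With the replicate block 28 of the 35 genes fell, Ckap2l and Ckap5 in addition (3.00% of all genes tested). The labels give no pairing, and 3 arrays a group cannot settle whether the replicate numbers pair the samples. Deviations of same-numbered arrays correlated at -0.15, -0.04 and 0.25, and not every array correlated best with its own number. Differences that changed sign were those of Cit, at 0.0070 with array weights and -0.2577 to 0.0626 when 1 array was left out, and of Kif18b, at -0.04 without Ihh-ablated replicate 1, -0.51 to 0.46 when 1 array was left out and -0.43 without both arrays with other-tissue transcripts. Neither gene passed under those settings, and the cause was not tested. No detection calls were used, so the folds of genes whose Ihh-ablated level lies near the limit for dim signals are uncertain; 3 genes, Kif20a, Kif20b and Spag5, lay below it there.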
